A study of Mus musculus with 8 samples.

Results

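Wide H3K27ac regions were the stretches of at least 2000 bp among the acetylated regions that 2 ChIP-seq libraries had in common in a mouse melanocyte line. They were chosen by H3K27ac peak width. Overlapping peaks of both H3K27ac libraries, by 1 bp or more, were joined, and a joined region was kept when each library contributed a peak. On chromosomes 1 to 19 this left 36615 regions, called H3K27ac regions from here on, of which 1021 (2.79%) were at least 2000 bp long. The whole list, with the other chromosomes, had 36655. Chromatin immunoprecipitation sequencing (ChIP-seq) recovers the DNA bound to the target of an antibody, and a peak is a place where its tags exceed the level set by an input library, sequenced without the antibody step. The cells were melan-Ink4a-Arf-1, a single immortalised line from embryonic skin of mice homozygous for the Cdkn2a tm1RDp allele, grown with the phorbol ester 12-O-tetradecanoylphorbol 13-acetate and cholera toxin. 6 ChIP libraries were deposited as peak lists, 2 each for H3K27ac, for the repressive mark H3K27me3 and for the transcription factor SOX10, from independent experiments per the labels' protocols. All groups share the line, the genotype and the medium, so there is no untreated or wild-type group, and the melanocyte label was not checked against marker genes because no gene annotation of the mm9 build was used here.

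Acetylation of lysine 27 on histone H3 is laid down by the coactivators p300 and CBP and marks active promoters and enhancers. In many cell types long acetylated stretches lie at strongly transcribed genes and at clusters of enhancers near genes that define the cell. SOX10 is a neural crest transcription factor that melanocytes need for their specification and survival. It binds many distal enhancers of pigment genes. H3K27me3 is written by Polycomb repressive complex 2 on the same lysine, so 1 histone tail cannot carry both marks.

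The H3K27ac libraries kept 45583056 and 44416913 tags after duplicate removal. The SOX10 libraries kept 6440395 and 8985699 and the H3K27me3 libraries 67060647 and 71987481. With 2 libraries an antibody, no permutation test between libraries can pass 0.05 and regions are not replicates, so shares and densities are given with 95% intervals that cover counting error only (Wilson for shares, exact Poisson for densities), and beside them the value from each library. No difference below was tested.

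Width chose these regions, so their H3K27ac values are a description. They were 2.79% of the H3K27ac regions and held 11.2% of their sequence, 2.85 of 25.5 Mb. Their median width was 2493 bp, with quartiles at 2179 and 3016 bp, against a median of 536 bp for the 35594 narrower regions. Most lay close above the minimum: 517 were under 2500 bp, 238 from 2500 to under 3000 bp, 178 from 3000 to under 4000 bp and 88 longer still. The 3 narrowest members were 2000, 2002 and 2004 bp wide with fold enrichments between 9.23 and 13.9, and the 3 regions just short of the minimum were 1998, 1998 and 1995 bp wide with 8.63, 12.1 and 8.60. A peak's fold enrichment, taken from the authors' lists, sets the tags at its summit against the background there. A region's fold in a library is that of its highest peak there, and these values are means of both libraries.

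Both libraries built the wide regions, mostly from several peaks. Replicate 1 peaks covered 89.6% of their bases and replicate 2 peaks 91.0%, and 80.5% of bases were called in both. For the narrower regions the shares were 78.9%, 82.3% and 61.2%. Single peaks of 2000 bp or more were present at 264 wide regions in replicate 1 and at 315 in replicate 2. They were present in both libraries at 140, and 582 (57.0%) had such a peak in neither, so that they passed 2000 bp through merging. Only 64 (6.27%) consisted of 1 peak in each library, and the most pieces in 1 library was 9. A wide region held a median of 305 tags in replicate 1 and 314 in replicate 2, against 44 and 47 in a narrower one. The median fold enrichment was 11.5 in replicate 1 and 11.3 in replicate 2, against 8.66 and 8.53 in narrower regions. Wide regions held a median of 2 peaks in each library and narrower ones 1, so their highest peak was taken from more peaks. What part this has in the higher folds was not tested. Across the 1021 regions, which share their libraries and input, the log2 folds of both replicates correlated with r = 0.67, and at 36 regions they differed by more than 1.5 times. Among the wide regions alone, cut at 2000 bp and with chromosome 6 pooled in, width and fold went together only loosely (r = 0.24 between log10 width and log2 fold). The r over all widths was not computed.

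**Figure D1:**
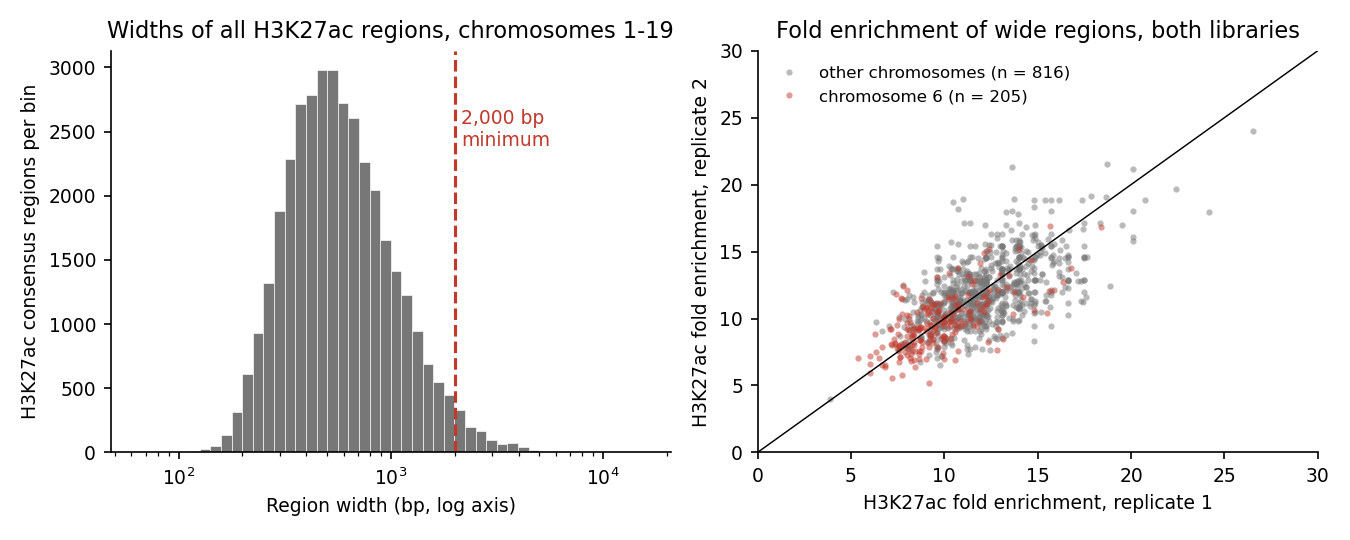
Left, number of H3K27ac regions on chromosomes 1 to 19 by width in bp on a log axis, with the 2000 bp minimum as a dashed line. Right, each of the 1021 wide regions by its authors' fold enrichment in replicate 1 and replicate 2, where the line marks equal values; the 205 regions on chromosome 6 sit lower in both libraries (median 9.43 against 11.9).

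The widest region spanned 14042 bp on chromosome 6 at 82973114 to 82987155, in 6 peaks of replicate 1 with 2365 tags and 4 peaks of replicate 2 with 2417 tags. Its fold enrichment was 13.0 in replicate 1 and 13.2 in replicate 2. The second, 11158 bp on chromosome 6 at 88915808 to 88926965, had folds of 10.6 and 11.7. The third, 8957 bp on chromosome 2 at 167584603 to 167593559, was broken into 7 and 9 peaks and had folds of 14.5 and 11.9. Each library's peaks covered at least 90.6% of these 3 regions. The fourth lay on chromosome 6 at 42484285 to 42492166, 7882 bp with folds of 9.69 and 10.5, and the fifth on chromosome 19 at 10364657 to 10371775, 7119 bp with folds of 14.5 and 14.4. 2 of the 10 were on chromosome 11, at 117173136 to 117180244 (9 and 7 peaks, folds of 15.2 and 13.3) and at 85646843 to 85653539. The latter, 6697 bp long, was a single peak in replicate 1 and 4 peaks in replicate 2, with folds of 16.6 and 14.7, so the same stretch was cut differently in each list. The 10 widest reached down to 6548 bp, and 4 of them lay on chromosome 6. Their folds, from 10.1 to 16.6 as means of both libraries, lay inside the range of all wide regions, 3.92 to 25.3.

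The median fold, taken at each region's highest peak, went up slightly with width, from 11.02 below 2500 bp to 12.3 at 4000 bp and more. Still, none of the 10 widest was among the 5 with the highest fold. The highest fold among wide regions, 26.5 in replicate 1 and 24.0 in replicate 2, was on chromosome 17 at 87599397 to 87604057, a region of 4661 bp made of 6 peaks in each library. Next were 2 regions on chromosome 7, at 16793000 to 16797629 with folds of 24.2 and 18.0 and at 29744609 to 29747363 with 22.4 and 19.7. The fourth lay on chromosome 4 at 140210687 to 140213144 (20.1 and 21.2) and the fifth on chromosome 12 at 103855285 to 103858232 (18.7 and 21.5). None of these 5 lay on chromosome 6, and the region on chromosome 7 at 16793000 was the one of the 5 with the largest gap between libraries (SD 4.38, n = 2). The order of the second to the fifth rests on differences smaller than their spread between libraries.

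Chromosome 6 held 205 of the 1021 wide regions, 20.1%, but 7.11% of all H3K27ac regions. Of the 2602 H3K27ac regions on chromosome 6, 7.88% were wide, against 1.34% to 2.999% on each of the other 18 chromosomes (median 2.42%). Each library showed it alone: single peaks of 2000 bp or more made up 1.90% of the chromosome 6 peaks in replicate 1 and 1.65% in replicate 2, where the other chromosomes reached at most 0.511% and 0.553%. The excess ran along much of the chromosome. In 10-Mb windows the wide share was 12.5% between 110 and 120 Mb, 11.7% between 140 and 150 Mb and 10.3% between 80 and 90 Mb, and it was 0% of 32 regions between 60 and 70 Mb and 1.27% in the first 10 Mb.

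The input was also higher on chromosome 6. The background under each peak was recovered from its tags and its p as a multiple of the genome-wide input level. Among narrower regions it went down to 0.822 in replicate 1 and 0.754 in replicate 2. This assumes that MACS scaled the background to the length of the peak, which the H3K27ac and SOX10 lists do not show, so the multiples serve to set chromosomes and regions side by side. For H3K27ac peaks its median was 1.59 in replicate 1 and 1.53 in replicate 2 on chromosome 6, against at most 1.25 and 1.19 on the others. SOX10 peaks, called against a separate input library, gave 1.95 and 1.98 on chromosome 6, where chromosome 11 came close with 1.88 and 1.90 and the median of the 18 others was 1.43 and 1.45. Tags per kb of called H3K27ac sequence were 131.5 and 131.3 on chromosome 6 in replicates 1 and 2, and reached at most 123.0 and 123.8 elsewhere. Wide regions of chromosome 6 had nearly the same median width as the others (2504 against 2484.5 bp) but more very long members: 31 of 205 (15.1%, 10.9 to 20.7%) reached 4000 bp, against 57 of 816 (6.99%, 5.43 to 8.94%). Their fold was lower, with medians of 9.32 and 9.43 in replicates 1 and 2 against 12.0 and 11.9. They were more often built from long peaks, with a single peak of 2000 bp or more at 41.0% in replicate 1 and 39.5% in replicate 2, against 22.1% and 28.7% on the other chromosomes. What part the input has in the number of wide regions on chromosome 6 was not tested. Joining H3K27ac peaks less than 500 bp apart before measuring width raised the count to 5608. Then 32.6% of regions were wide on chromosome 6 against 16.1% to 25.9% on the others, closer as a ratio but further apart in percentage points.

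**Figure D2:**
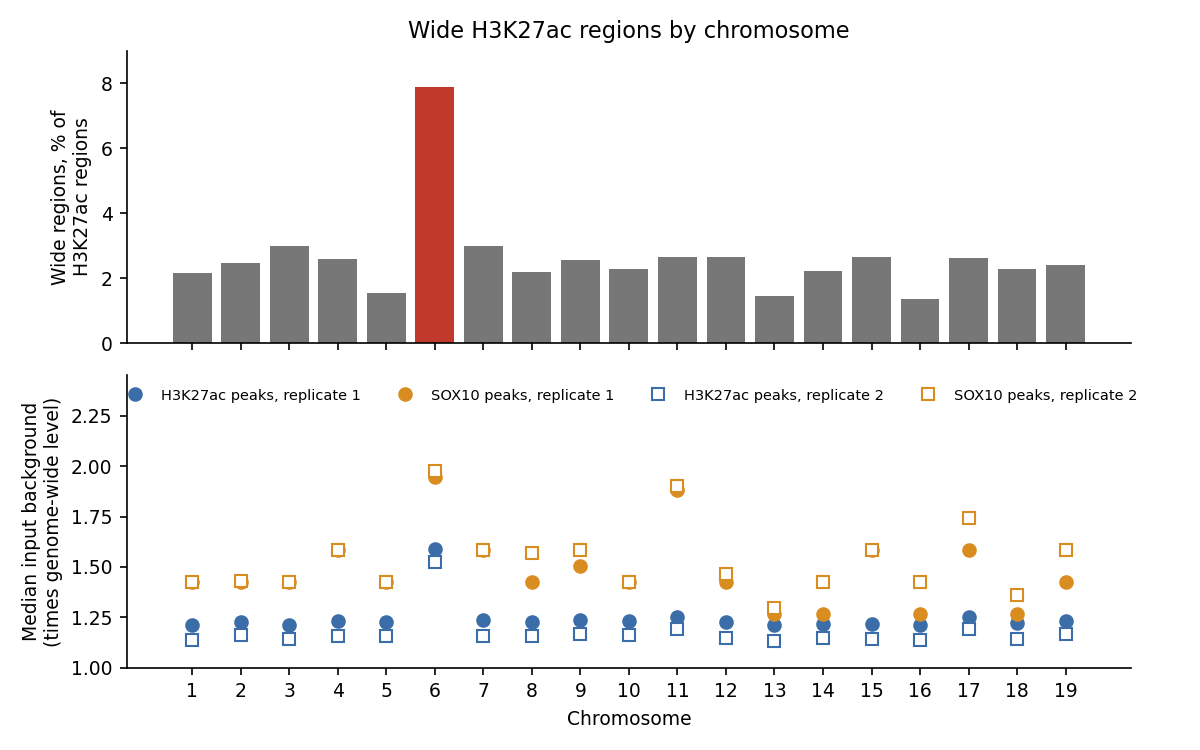
Top, wide regions as a percentage of the H3K27ac regions of each chromosome (bars start at 0; chromosome 6 in red, 7.88%). Bottom, median input background under H3K27ac and SOX10 peaks, as a multiple of the genome-wide input level, by chromosome and library; chromosome 6 has the highest median in each of the 4 lists.

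Wide regions often lay near other acetylated regions. Spacing comes from the same H3K27ac peaks that set the width, so it is a description too. The next H3K27ac region was a median of 130 bp away, and within 1 kb for 87.0% of wide regions (84.8 to 88.9%), against 426 bp and 65.9% (65.4 to 66.4%) for narrower ones. Another wide region lay within 10 kb of 34.7% of them and within 50 kb of 54.3%. Matching values for sets of narrower regions were not computed. The median distance between wide neighbours was 11.04 kb on chromosome 6, which held 205 of the 1021, and 49.1 kb elsewhere. Chained at gaps of at most 50 kb, 334 wide regions formed 76 groups of 3 or more, 23 of them on chromosome 6, and 467 stood alone.

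The largest of these groups, chosen after their values were seen, were on chromosome 6. 12 wide regions with 51198 bp of acetylated sequence, the widest of all among them, lay within 141 kb at 82946953 to 83088306, and 4 of them overlapped a SOX10 site. 10 lay within 123 kb at 114797457 to 114920045, with 1 at a SOX10 site. 9 lay within 82.5 kb at 146827516 to 146910003, with 2 at SOX10 sites. Off chromosome 6 the largest groups were 8 regions within 59.8 kb on chromosome 2 at 167545949 to 167605743 and 7 within 47.4 kb on chromosome 15 at 78988612 to 79035961. In the group on chromosome 15, 4 of 7 overlapped a SOX10 site, and in the group on chromosome 2 it was 2 of 8. Over all wide regions the share was 25.8%, and over all H3K27ac regions 9.67%. Neighbouring wide regions can share a site, so these small counts set no group apart.

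A SOX10 site touched about 1 wide region in 4. SOX10 sites were regions with a peak in both SOX10 libraries, and 263 of 1021 wide regions overlapped one by at least 1 bp, 25.8% (23.2 to 28.5%). Of all 36615 H3K27ac regions 9.67% did, and of the narrower ones 9.21% (8.91 to 9.51%). With the peaks of SOX10 replicate 1 alone the share of wide regions was 29.6% (26.9 to 32.5%), against 10.6% of narrower ones, and with replicate 2 alone 41.6% (38.6 to 44.7%) against 16.3%. Both single lists are longer than the common one, and replicate 2, with more kept tags, gave the larger share. The SOX10 share was 27.3% (21.7 to 33.8%) on chromosome 6 and 25.4% (22.5 to 28.5%) on the others together, where single chromosomes ranged from 6.67% (1 of 15, chromosome 16) to 38.9% (14 of 36, chromosome 12). 10 wide regions touched 2 SOX10 sites and none touched more. By library, 543 wide regions had a SOX10 peak in neither list, 229 in 1 and 249 in both.

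A longer region offers more room for an overlap, and the share went up with width over the whole range. It was 3.68% (2.94 to 4.60%) of regions under 250 bp, 16.3% (15.2 to 17.5%) from 1000 to under 1500 bp and 19.4% (17.3 to 21.6%) from 1500 to under 2000 bp. Among wide regions it went from 22.8% (19.4 to 26.6%) below 2500 bp to 35.2% (26.1 to 45.6%) at 4000 bp and more. Per length the increase stopped at about 1 kb. Wide regions held 110 SOX10 summits, 3.85 per 100 kb (3.17 to 4.64), and narrower regions 2.47 (2.27 to 2.68). Regions from 1000 to under 1500 bp held 3.40 per 100 kb (2.89 to 3.96) and those from 1500 to under 2000 bp 3.34 (2.63 to 4.19), within the interval of the wide regions. Each library alone gave the same picture, with 5.54 per 100 kb of wide region in SOX10 replicate 1 and 8.27 in replicate 2, where regions from 1500 to under 2000 bp had 5.08 and 9.22. Without chromosome 6 the density of wide regions was 3.35 per 100 kb (2.64 to 4.21), and on chromosome 6 alone it was 5.66 (3.94 to 7.87).

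**Figure D3:**
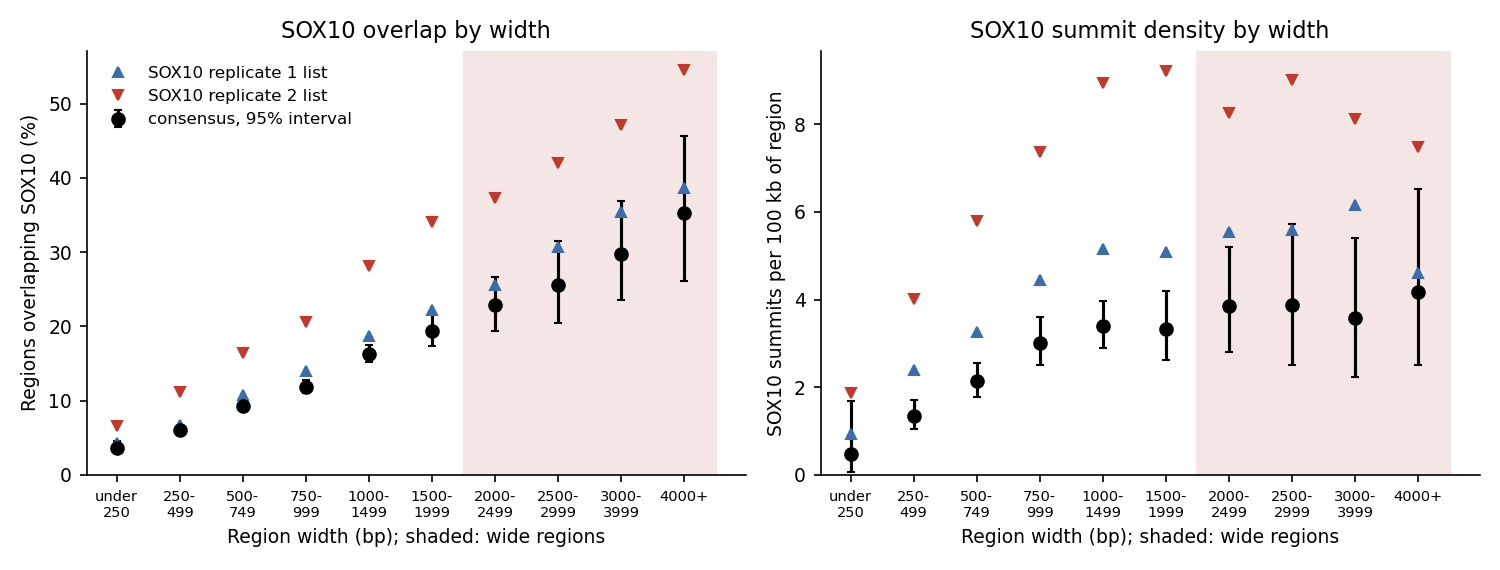
Share of H3K27ac regions overlapping SOX10 (left) and SOX10 summits per 100 kb of region (right) by width class, for SOX10 sites common to both libraries (black, with 95% intervals) and for each SOX10 list (triangles). The share goes on rising into the shaded wide classes, while the density stays between 3.34 and 4.18 from 1000 bp on.

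SOX10 summits lay beside wide regions more often than in them. Of the 252 SOX10 sites that touched a wide region, out of 4114 on these chromosomes, 110 had their summit inside and 142 outside, at a median of 198.5 bp from the edge. A summit inside was found at 108 wide regions, 10.6% (8.84 to 12.6%), where 1.82% of all H3K27ac regions had one. Of the 142 outside summits, 25 fell in another H3K27ac region and 117 in none. At 109 of these 117 an H3K27ac region lay within 1 kb on both sides, so that the summit sat in a gap between called acetylation. The same share for other positions just outside wide regions was not computed, and 87.0% of wide regions had another H3K27ac region within 1 kb. SOX10 sites at wide regions had a median width of 1683 bp.

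The density of summits showed the same edge. In the 250 bp just outside wide regions it was 17.6 per 100 kb (14.2 to 21.7), and from 250 to 500 bp outside it was 8.03 (5.76 to 10.9). These flanks were added up over regions, so a summit between neighbouring wide regions counts for each of them, some flank bases lie in another H3K27ac region, and the intervals treat such repeats as separate counts. With each base counted once and all H3K27ac regions left out, 75 summits in 367419 bp gave 20.4 per 100 kb (16.1 to 25.6) in the first 250 bp and 10.3 (6.70 to 15.0) in the next. Inside it was 6.07 (4.13 to 8.62) in the outer 250 bp and 3.45 (2.29 to 4.98) more than 1 kb from either edge. Further out, counted once in the same way, it came to 2.23 (1.11 to 3.99) between 500 and 1000 bp, 1.35 (1.01 to 1.77) between 2 and 5 kb and 0.514 (0.397 to 0.654) between 10 and 20 kb. Both SOX10 lists had their peak in the first 250 bp outside, replicate 1 with 21.0 per 100 kb (17.2 to 25.3) and replicate 2 with 26.6 (22.4 to 31.5), or 22.6 and 29.4 counted once. In the first 250 bp inside they had 7.84 (5.60 to 10.7) and 12.3 (9.48 to 15.8). Regions from 1000 to under 2000 bp had the same shape, with 14.6 (13.2 to 16.1) just outside and 4.58 (3.801 to 5.47) just inside, so it was not particular to the wide ones. Among stronger SOX10 peaks (score of 100 or more, where the score is -log10 p multiplied by 10) the density was 9.60 in the first 250 bp outside and 1.05 inside the wide regions. With H3K27ac peaks less than 500 bp apart merged, which by construction takes short gaps into the regions, the 5608 regions of 2000 bp or more had 4.85 per 100 kb in the 250 bp outside and 4.79 over the whole inside.

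Inside wide regions, 71 of the 110 summits (64.5%, 55.3 to 72.9%) fell on bases that both H3K27ac libraries had called, where 80.5% of bases were so called. They lay a median of 658 bp from the nearer edge, and 60 of 110 (54.5%, 45.2 to 63.5%) were closer to an edge than to the centre, but the outermost 250 bp held 31 of them (28.2%, 20.6 to 37.2%) on 17.9% of the bases. On chromosome 6, 16.6% (12.1 to 22.3%) of wide regions had a SOX10 summit inside, and on the other chromosomes 9.07% (7.29 to 11.2%), although the shares that touched a site were 27.3% and 25.4%.

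**Figure D4:**
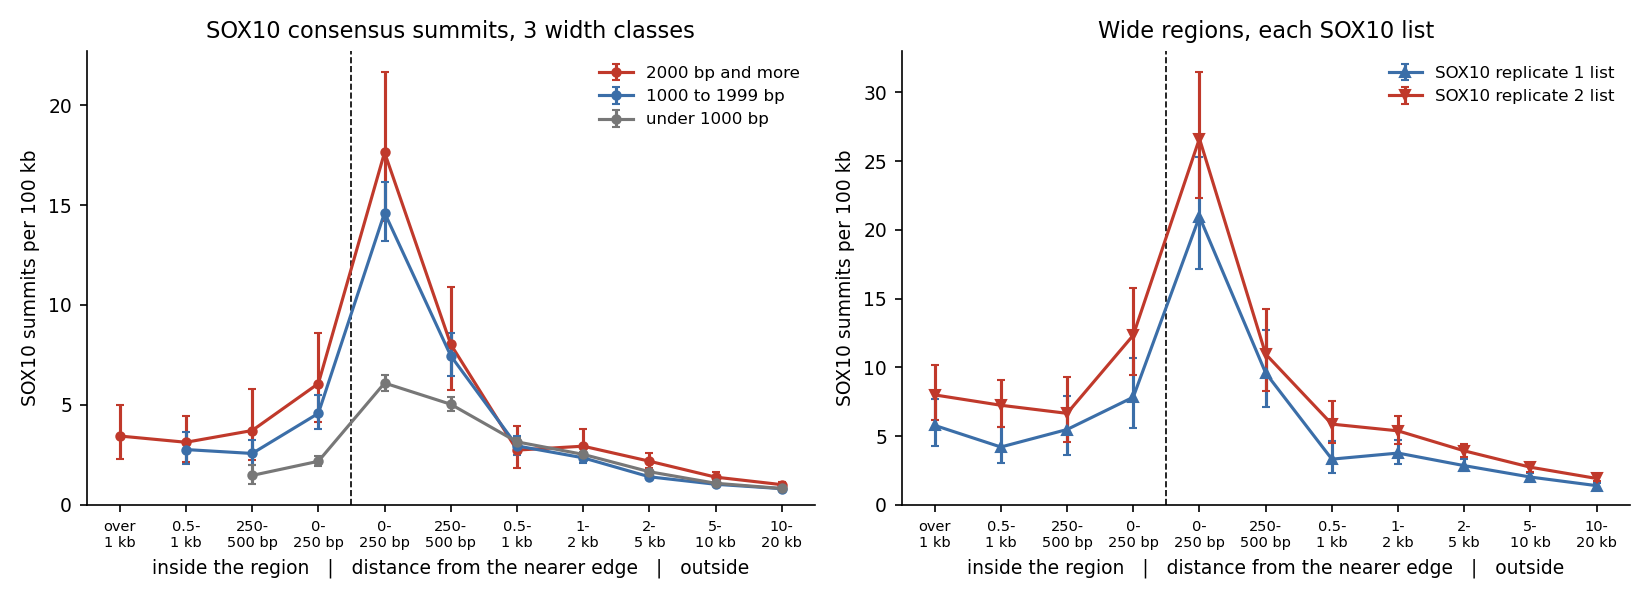
SOX10 summits per 100 kb by distance from the nearer edge of an H3K27ac region, inside (left of the dashed line) and outside, with 95% Poisson intervals; flanks are added up over regions, so a summit can count more than once. Left, sites common to both SOX10 libraries for 3 width classes; right, wide regions with each SOX10 list, where both peak in the first 250 bp outside (21.0 and 26.6).

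SOX10 sites at wide regions were broad and rich in tags but not high in fold. Their median fold enrichment was 8.92 in SOX10 replicate 1 and 9.61 in replicate 2. It was 10.2 and 10.4 at the 1960 sites that touched narrower H3K27ac regions only, and 11.9 and 11.9 at the 1902 sites that touched none. By tags the order was the opposite, with medians of 41 and 67 at wide regions, 29 and 45 at narrower ones and 19 and 28 elsewhere. Tags were summed over a site and not scaled to its width, and median site widths were 1683, 1280.5 and 1035 bp in the same order. A longer site also touches a region more easily. The recovered input background moved with the tags, with medians of 2.53 and 2.69 times the genome-wide level at wide regions, 1.90 and 1.90 at narrower ones and 1.27 and 1.27 elsewhere. Its part in the lower folds was not tested.

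The 5 wide regions with the strongest SOX10 sites all had the summit just outside. The highest SOX10 fold, 49.0 in replicate 1 and 55.5 in replicate 2, was at a region of 2494 bp on chromosome 2 at 102713778 to 102716271, with the summit 261 bp from its edge. The next, 53.4 and 39.7, was 127 bp from a region of 2088 bp on chromosome 6 at 134488047 to 134490134. 2 wide regions on chromosome 1, at 38454621 to 38458725 and at 38458998 to 38461129, shared 1 site between them, with SOX10 folds of 48.9 and 36.9 and the summit 115 bp from the first and 158 bp from the second. The fifth was on chromosome 18 at 31624264 to 31626598, with 35.7 and 47.9. The H3K27ac folds of these 5 regions ran from 6.32 to 13.3, and at 4 of them lay below the median of 11.5 for wide regions.

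Other wide regions carried SOX10 within. Only 2 held 2 summits, one on chromosome 8 at 35870347 to 35874497 and one on chromosome 6 at 82946953 to 82950987, 4151 and 4035 bp wide. The first had a SOX10 fold of 6.44 in replicate 1 and 13.2 in replicate 2 at its stronger site, and the second 12.5 and 9.97. The widest regions with 1 summit inside, after the one of 11158 bp, were on chromosome 4 at 144481442 to 144487451 with SOX10 folds of 4.30 and 4.22 and on chromosome 6 at 146879053 to 146885013 with 14.9 and 15.0. Of the 10 widest regions 3 touched a SOX10 site, and the 11158 bp region on chromosome 6 had its summit 4992 bp from the nearer edge, with SOX10 folds of 9.43 and 9.50. Wide regions with and without a SOX10 site were close in acetylation, with median folds of 12.0 and 11.3 and median widths of 2581 and 2456 bp.

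Few acetylated regions, wide or narrower, carried the Polycomb mark. An H3K27me3 region common to both libraries overlapped 13 of 1021 wide regions, 1.27% (0.746 to 2.17%). Of all H3K27ac regions 1.94% were overlapped and of narrower ones 1.96% (1.82 to 2.11%), so the intervals overlap. In the H3K27me3 list of replicate 1 alone, 2.15% (1.43 to 3.24%) of wide and 4.76% (4.55 to 4.99%) of narrower regions overlapped a peak. With replicate 2 alone it was 1.96% (1.27 to 3.01%) and 2.14% (2.00 to 2.30%). Wide regions were more often on chromosome 6 than narrower ones (20.1% against 6.73%), so these pooled shares mix chromosomes. 8 of the 13 lay on chromosome 6. H3K27me3 peaks were called without a local background, and the input was higher on chromosome 6. What part this has in the chromosome 6 overlaps was not tested. There 3.90% (1.99 to 7.51%) of wide and 10.8% (9.66 to 12.2%) of narrower regions overlapped. With the replicate 1 list alone these were 4.88% (2.67 to 8.75%) and 13.4% (12.1 to 14.9%), and with replicate 2 alone 6.34% (3.74 to 10.5%) and 12.0% (10.8 to 13.4%). In all 3 lists, of which the common one is drawn from the other 2, the share on chromosome 6 was lower in wide regions. The intervals treat neighbouring regions as independent, so they do not serve as a test of this difference or of those below. On the other chromosomes the common list overlapped 5 of 816 wide regions, 0.613% (0.262 to 1.43%), and 1.32% (1.20 to 1.45%) of narrower ones. With replicate 1 alone it was 1.47% (0.843 to 2.55%) there against 4.14% (3.93 to 4.36%). With replicate 2 alone it was 0.858% (0.416 to 1.76%) against 1.43% (1.31 to 1.56%), with intervals that overlapped. 992 wide regions had no H3K27me3 peak in either library.

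H3K27me3 covered between 30.9% and 100% of the width of these 13 regions, with a median of 62.0%. Their median H3K27ac fold was 9.02 (3.92 to 15.9), against 11.5 for the 1008 other wide regions. The mark covered 31.3% of the widest of the 13, 7882 bp on chromosome 6 at 42484285 to 42492166, which touched 2 H3K27me3 regions and was the only one of the 13 with a SOX10 site. At 3 further regions on chromosome 6 H3K27me3 covered 54.4% (91572008 to 91575399), 56.6% (115879109 to 115882335) and 60.8% (52126107 to 52129136), with H3K27ac folds of 7.63, 7.93 and 9.14. The region on chromosome 1 at 90171675 to 90175201 differed from these in its input. It held 785 and 776 H3K27ac tags at folds of only 3.86 and 3.98, the lowest among wide regions, and its input background was 6.87 and 6.56 times the genome-wide level, the only wide region above 5.

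Distance to the called H3K27me3 regions followed the chromosome, and what part the higher input of chromosome 6 has in this was not tested. The nearest H3K27me3 region was a median of 35.0 kb from wide regions and 42.7 kb from narrower ones. On chromosome 6 these medians were 16.0 and 7.67 kb, so wide regions lay further away there, and on the others 42.2 and 46.1 kb. Within 5 kb of H3K27me3 lay 22.9% (17.7 to 29.1%) of wide and 41.9% (39.9 to 43.9%) of narrower regions on chromosome 6, and 4.90% (3.62 to 6.61%) and 7.00% (6.73 to 7.28%) on the other chromosomes.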

How the data were processed

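The authors called peaks in each library separately with MACS 1.4.2 against an input, at a p cutoff of 1e-05 and at most 1 tag per position, per the file headers. Positions are in mm9, per the submitters' processing notes. No aligner is named here. Each deposited list gives a count of tags per peak, a score of -log10 p multiplied by 10, the authors' fold enrichment as a ratio over input, and an FDR in percent. The tag distance used by MACS was 50 and 51 bp for H3K27ac, per the file headers, so H3K27ac peaks can be narrow or split. H3K27me3 peaks were called without a local background, per the same headers.

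Samples were grouped by the antibody and replicate number in their titles. Consensus regions need a peak of each replicate. A summit is that of the region's peak with the highest fold. The input background is the Poisson mean at which a peak's tags give its p. Overlap and background code was tested on simulated data. Computation used Python 3.11.15, NumPy 2.4.6, pandas 2.3.3 and SciPy 1.17.1. Regions named are the 10 widest, the 5 highest in H3K27ac fold, in SOX10 summits and in SOX10 fold, the 5 widest with H3K27me3, and the 3 on each side of the minimum. The members and these rules were chosen with earlier results of these data known. Gene names, gene starts, base composition and motifs need an mm9 genome and were not analysed here.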

Additional observations from a re-analysis of the deposited data

How the results depend on the processing

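The number of wide regions depended on how regions are made. It was 2331 at a minimum of 1500 bp, 266 at 3000 bp, 5608 with H3K27ac peaks under 500 bp apart merged, 523 with H3K27ac peaks of an FDR of at most 1%, and 276 to 319 with single peaks of 1 H3K27ac library. The FDR filter, the filter on input background and all alternatives for the edge and chromosome 6 were chosen after seeing the data. The SOX10 share of 25.8% became 22.2% at 1500 bp, 31.6% at 3000 bp, 20.3% with the FDR filter, 11.2% with SOX10 peaks of a score of at least 100, 10.6% with the summit inside and 13.7% with 50% of the shorter shared. It was 28.8% to 41.6% without 1 library of H3K27ac or SOX10, the highest without SOX10 replicate 1. The density of SOX10 summits in wide regions became 4.79 per 100 kb with merged peaks, 1.05 with the SOX10 score filter and 3.75 to 8.27 without 1 library. In the 250 bp outside it became 4.85 with merged peaks, 13.0 with the FDR filter, 9.60 with the score filter and 18.8 to 26.6 without 1 library. Counting each base and summit once, added after seeing the data, gave 20.4. The H3K27me3 share became 0.613% without chromosome 6, 2.67% with merged peaks and 0.940% to 2.17% without 1 library. The chromosome 6 share of 20.1% became 16.0% at 1500 bp, 24.8% at 3000 bp, 9.34% with merged peaks, 17.6% without regions of an input background over 2, and 26.0% to 33.0% without 1 H3K27ac library. In all, 34 of 69 values stayed inside the main value's 95% interval (for the count, within 1.5 times). Where they did not, the cause was not tested, beyond the fewer or longer regions that the alternative makes. SOX10 shares of narrower regions stayed lower in each way of making regions, 6.37% to 13.0% against 20.3% to 29.3%. No paired analysis was possible because the results come from no test. Gene start shares were not run without an mm9 annotation. SOX10 lists were not compared at equal depth.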

Other observations

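A peak with an FDR above 1% was present at 44.0% (95% Wilson interval 41.0 to 47.0%) of wide H3K27ac regions in replicate 1 and at 37.8% (34.9 to 40.8%) in replicate 2, against 0.877% and 0.559% of narrower regions. At 286 wide regions it was so in both libraries. With those peaks left out, merging gave 523 regions of at least 2000 bp, with a SOX10 share of 20.3%, against 9.01% of narrower ones, and 4.27% of chromosome 6 regions were wide against 0.454% to 2.09% on the other chromosomes. Leaving peaks out can only shorten or split the merged regions, so each of these 523 lies inside a region of the 1021. How many of the 1021 hold one was not computed. A minimum score of 100 for H3K27ac peaks left 885 wide regions, so the 2 filters did not act alike. Wide regions held a median of 2 peaks in each library and narrower ones 1. What part this has in the difference between the shares was not tested. Whether such peaks are less reliable was not tested.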
